A study of Mus musculus with 6 samples.

Results

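Interleukins are secreted signalling proteins, and interleukin receptors are the cell surface chains that bind them. In the deposited gene table of postnatal day 4 sciatic nerve, 77 of 59485 genes had a symbol that starts with Il and a digit and were taken as members. The 6 genes *Il1b*, *Il18*, *Il1rn*, *Il6*, *Il6st* and *Il11* have such a symbol too and were left out. The groups were 3 control animals, labelled wild-type, and 3 mutant animals, labelled Ht-PA-Cre; Adar1fl/fl;R26R, with 1 RNA-seq library from each animal. Per the study's methods, the wild-type animals carried Adar1fl/fl;R26R or Adar1fl/+;R26R without Cre, so floxed *Adar* alleles and the R26R YFP tracer were not restricted to mutants. In the mutants, Cre under the promoter of human tissue plasminogen activator deletes *Adar* (the gene of ADAR1) in neural crest cells, among them Schwann cells (SCs). Endothelial and blood-derived cells are of other origin, and a value is a sum over the cells of the whole nerve. Fewer cells of a type and less RNA per cell cannot be told apart.

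Values are normalized read counts, that is, reads counted on a gene divided by a size factor of the library. The libraries held 50938349 to 78250094 reads on genes, and 1 read was worth 0.727 to 1.27 normalized counts. *Adar*, the targeted gene (GSMG0024553, chromosome 3, 89715022 to 89753454), was higher in the libraries with the mutant label (11768, 9311 and 9773) than in those with the control label (1602, 2066 and 1133), which goes against that label. A single value per gene does not tell reads of the deleted segment from the rest, so this value cannot decide whether the labels are right. The groups are named control-labelled and mutant-labelled for this reason, and each direction rests on the labels. SC markers were present in each library, and summed over *Sox10*, *S100b* and *Mbp* they were 1390518 to 1727135 in the control-labelled and 19734 to 148059 in the mutant-labelled libraries. *Mbp* held most of this sum (1537157 ± 169073, then 64517 ± 64812). The paper reports lower *Mbp* in nerves of mutants by RT-qPCR, which is the direction found here under the labels. Values are listed below in the order of replicates 1, 2 and 3, errors are SDs (n = 3 libraries of a group), and positions are on mm10 as the table gives them.

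Most interleukins bind a receptor of several chains, of which some are shared between family members. IL-2, IL-4, IL-7, IL-9, IL-15 and IL-21 signal through the common gamma chain, encoded by *Il2rg*. Cytokines of the IL-1 family use a ligand-binding chain and, in most cases, the accessory protein encoded by *Il1rap*, and decoy receptors or soluble binding proteins capture ligand without a signal. IL-17 cytokines bind dimers that often contain the chain encoded by *Il17ra*. In peripheral nerve, cytokines of these families are best known from the response to injury, in which SCs, fibroblasts, mast cells and macrophages take part.

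Promoter sequences of 3 members are shown because these genes stand out in the fit by limma on log2(value + 1), *Il2ra* with the largest rise on that scale, *Il18bp* with the smallest adjusted p of the members and *Il17rb* with the largest fall. By edgeR and DESeq2 on recovered reads, the largest rises were those of *Il1bos* and *Il12b*, which had no reads in control-labelled libraries. Each run is the 220 bases before the RefSeq start of the gene (GRCm38.p6), written 5′ to 3′ on the strand of the gene, with matches to the NF-kB motif in capitals.
*Il2ra*, chr2:11642572-11642791, plus strand: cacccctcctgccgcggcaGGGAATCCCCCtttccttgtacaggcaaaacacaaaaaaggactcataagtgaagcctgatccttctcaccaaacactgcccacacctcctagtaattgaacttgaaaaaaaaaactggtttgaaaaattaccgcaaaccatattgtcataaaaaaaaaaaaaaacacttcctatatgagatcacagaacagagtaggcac
*Il18bp*, chr7:102018233-102018452, minus strand: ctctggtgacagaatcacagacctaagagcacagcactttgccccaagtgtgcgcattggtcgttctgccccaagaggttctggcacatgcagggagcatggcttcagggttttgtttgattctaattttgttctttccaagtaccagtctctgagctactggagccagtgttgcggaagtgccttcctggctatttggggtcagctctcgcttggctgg
*Il17rb*, chr14:30008897-30009116, minus strand: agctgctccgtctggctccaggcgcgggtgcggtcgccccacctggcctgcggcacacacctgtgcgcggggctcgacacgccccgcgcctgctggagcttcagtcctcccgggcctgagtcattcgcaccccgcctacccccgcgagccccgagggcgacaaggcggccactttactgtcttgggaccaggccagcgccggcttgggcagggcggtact
Capitals occur only in the *Il2ra* run, where overlapping matches on both strands form 1 block. The *Il18bp* and *Il17rb* runs differ in base composition, with 52.3% and 72.7% G or C, and the *Il2ra* run has 41.4%. Neither motif searched was found in these windows of *Il18bp* and *Il17rb*.

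Of the 77 members, 52 had a mean of at least 10 in at least 1 group and were tested. They comprised 41 with such a mean in both groups, 10 that reached it through the mutant-labelled group alone and 1, *Il17rb*, that reached it through the control-labelled group alone. The test was limma on log2(value + 1). Its threshold was a change of at least 2-fold with p at or under 0.05 before adjustment, and the Benjamini-Hochberg adjustment ran over all 25802 genes tested. SE is the standard error of a log2 fold change. At low counts the estimate depends on the added 1 and can lie under or over that from recovered reads (*Il17f* was at 2.72 here and at 1.99 by edgeR). Among the members, 24 passed the threshold as higher in mutant-labelled libraries, which is 46.2% of the 52 tested, where 13.9% of all tested genes did. Lower were 3 members (5.77%), where 10.4% of all tested genes were. In either direction 24.2% of all tested genes passed. Values of each mutant-labelled library lay above those of each control-labelled one for 27 of the 52 members, where 25.9% of all tested genes did so, and below for 4, where 23.3% did (49.2% in either direction). The median log2 fold change was 1.08 over the 52 members and 0.03 over all tested genes. A gene that reaches the minimum in 1 group alone had to differ, so the 41 members with a mean of at least 10 in both groups are given too. Of these, 18 were higher and 2 lower (43.9% and 4.88%), where 10.8% and 9.93% of the 21753 genes of that kind were, and their median log2 fold change was 0.999 beside -0.00015 over all such genes. With an adjusted p at or under 0.05 in place of the unadjusted one, 24 of the 52 tested members passed in either direction (46.2%), where 19.9% of all tested genes did. The members past the threshold that did not were *Il18r1*, *Il17f* and *Il12rb1*.

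**Figure D1:**
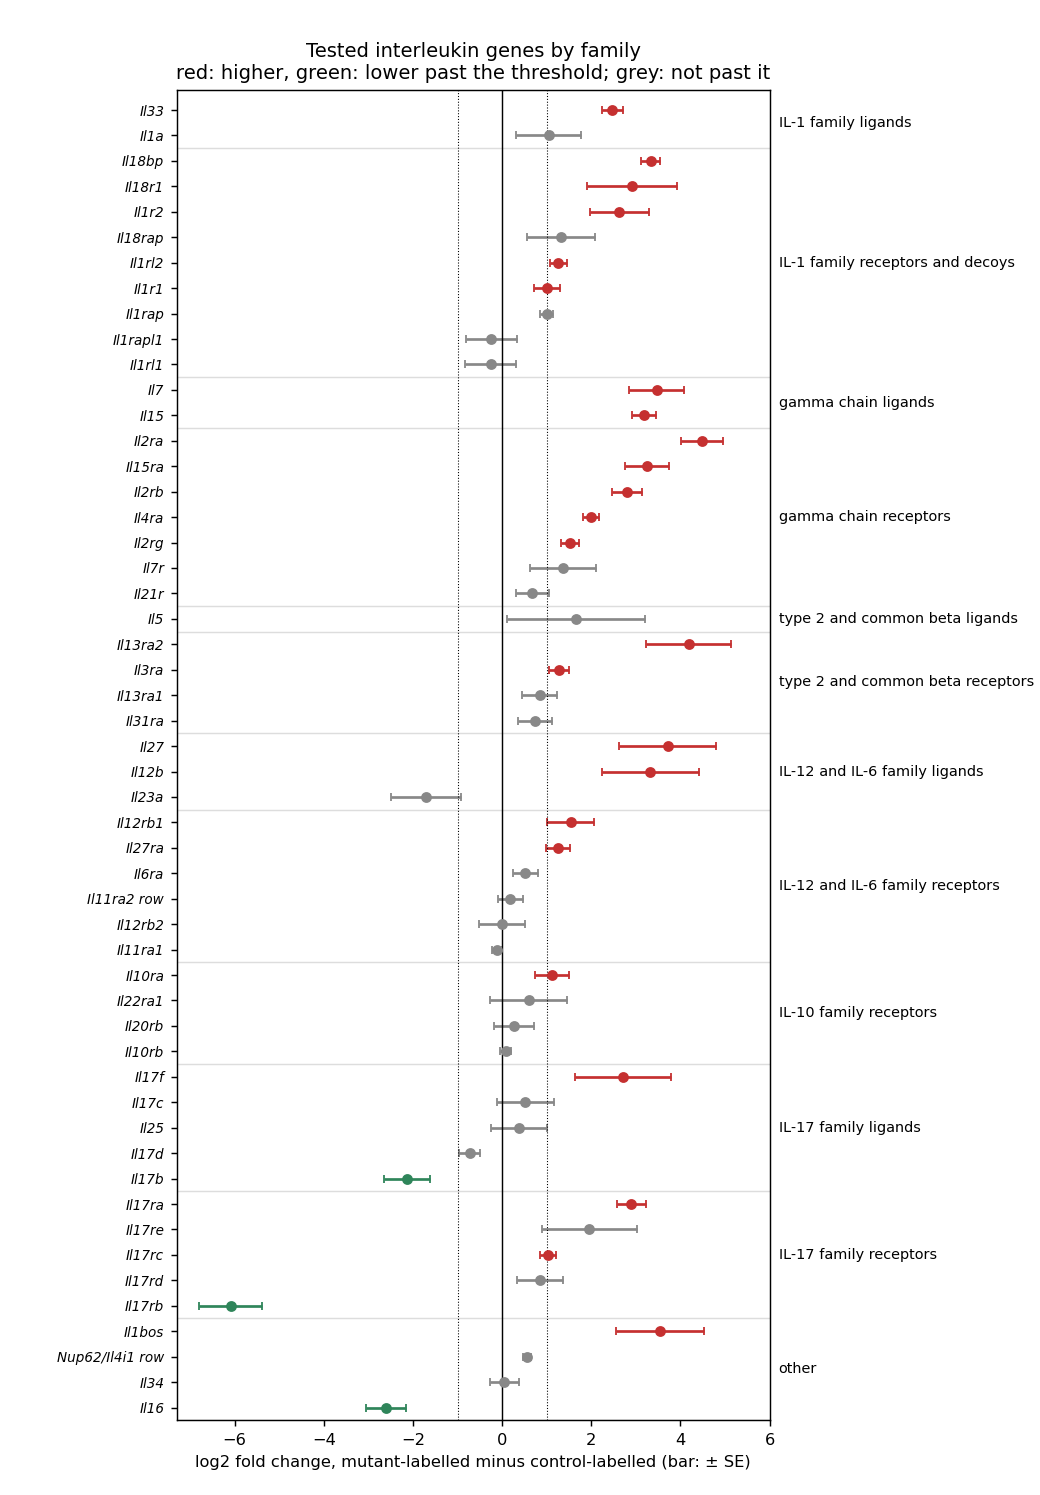
Log2 fold change (mutant-labelled minus control-labelled, x axis) of the 52 tested members, grouped by family. Points are limma estimates, bars the standard error, and dotted lines mark a 2-fold change. Red points stand for the 24 members past the threshold and higher, green for the 3 lower (*Il17rb*, *Il16* and *Il17b*) and grey for the other 25.

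In the common gamma chain family, 2 of 6 ligands were tested, *Il15* and *Il7*, and both rose, as did 5 of 7 tested receptor chains. Of all tested genes, 13.9% were higher past the threshold. *Il15* encodes a cytokine that maintains natural killer (NK) cells and memory T cells, and *Il7* one that supports lymphocytes. *Il15* (GSMG0038651, chromosome 8, 82331618 to 82403224) had values of 37.8, 39.7 and 40.6 in the control-labelled libraries and 409.5, 303 and 387 in the mutant-labelled ones. The control-labelled libraries lay within 3 counts of each other, and each mutant-labelled library was far above them. *Il15* rose from 39.3 ± 1.43 to 366 ± 56.1 (log2 fold change 3.18, SE 0.27, adjusted p = 6.7e-05). *Il7* (GSMG0025147, chromosome 3, 7569992 to 7613761) had values of 35.5, 5.67 and 17.7 in the control-labelled libraries and 201, 149 and 202 in the mutant-labelled ones, again without overlap. Its log2 fold change was 3.46 (SE 0.61, adjusted p = 0.00303), and with a library left out it ran from 2.81 without control replicate 2 to 4.03 without control replicate 1. The control-labelled values were low and uneven. The other ligands of this family were at or near 0. *Il2* and *Il4* had no reads in any library, which allows up to 3 reads in each, and *Il9* and *Il21* had reads in mutant-labelled replicate 1 alone, with values of 2.18, 0 and 0 and 5.82, 0 and 0.

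*Il2ra*, whose promoter is shown above, encodes the alpha chain of the IL-2 receptor. It (GSMG0020670, chromosome 2, 11642792 to 11693194) had values of 17.8, 5.67 and 10.1 in the control-labelled libraries and 263, 278 and 211 in the mutant-labelled ones, low in each control-labelled nerve and without overlap. The rise from 11.2 ± 6.12 to 250.4 ± 35.2 corresponds to a log2 fold change of 4.48 (SE 0.47, adjusted p = 0.000212). *Il15ra*, the alpha chain that presents IL-15, is its neighbor on chromosome 2 (11705293 to 11733985). Its values were 28.9, 35 and 10.1 in the control-labelled libraries and 236, 177 and 243 in the mutant-labelled ones (log2 fold change 3.25, SE 0.49, adjusted p = 0.00136). *Il2rb*, the beta chain that the IL-2 and IL-15 receptors share, had values of 24.4, 26.5 and 25.3 in the control-labelled libraries and 204, 195 and 153 in the mutant-labelled ones. It rose by 2.80 on the log2 scale (SE 0.33, adjusted p = 0.000377), and the groups did not overlap. For *Il2rg*, the common gamma chain itself, the values were 225, 313 and 204 in the control-labelled libraries and 731, 697 and 666 in the mutant-labelled ones (log2 fold change 1.52, SE 0.20, adjusted p = 0.000645). All chains that IL-2 and IL-15 bind were thus higher in each mutant-labelled library than in any control-labelled one, while *Il2* was without reads.

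*Il4ra*, the chain shared by the receptors of IL-4 and IL-13, had values of 409.8, 390.2 and 281 in the control-labelled libraries and 1266, 1427 and 1607 in the mutant-labelled ones (log2 fold change 2.001, SE 0.18, adjusted p = 0.000104). *Il21r* lies next to it on chromosome 7 and had overlapping values of 62.2, 102 and 50.7 in the control-labelled libraries and 144, 98.4 and 95 in the mutant-labelled ones (0.68, SE 0.37, adjusted p = 0.195). *Il7r*, the alpha chain of the IL-7 receptor, had few reads and overlapping values of 11.1, 32.1 and 5.07 in the control-labelled libraries and 23.3, 54 and 30.7 in the mutant-labelled ones. Its log2 fold change of 1.37 came with an SE of 0.74 (adjusted p = 0.184), and it passed the threshold without control-labelled replicate 2 (0.80 without control replicate 3 to 2.02 without control replicate 2). *Il9r* was under the minimum, with at most 5.67 in any library.

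**Figure D2:**
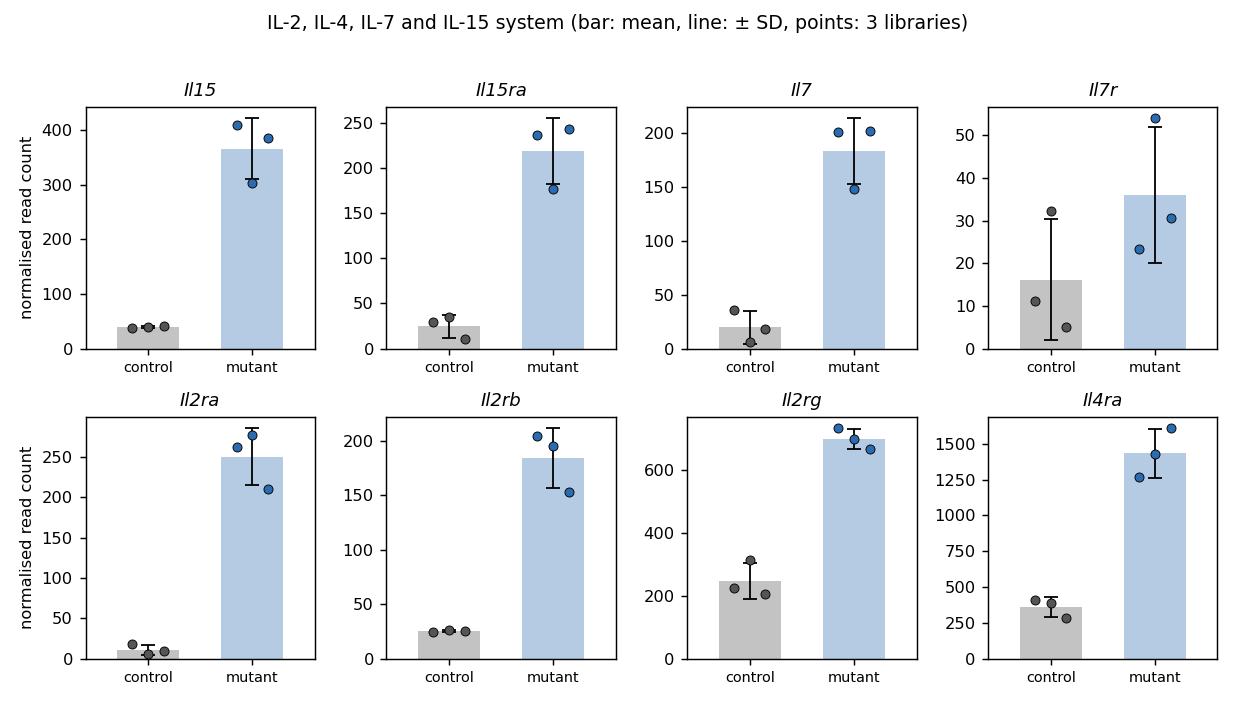
Normalized read counts (y axis, from 0, own scale in each panel) of 8 genes of the IL-2, IL-4, IL-7 and IL-15 system in control-labelled and mutant-labelled libraries. Bars are means, lines SDs and points the 3 libraries of a group. The points of the groups are apart in each panel except *Il7r*.

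Markers of lymphoid cells moved in the same libraries. The paper stained nerves with antibodies to CD45 and to macrophage proteins and reported no or only limited immune cell recruitment. That result is from staining, whereas the values here are RNA of the whole nerve. The NK cell list (*Ncr1*, *Klrb1c*, *Klrd1*, *Klrk1* and *Eomes*) was higher past the threshold for 5 of 5 genes, where 13.9% of all tested genes were. Of these, *Klrb1c* alone had a mean of at least 10 in both groups (25.5 and 82.4). The others were tested through the mutant-labelled group alone, so they had to differ. The sum of the list was 18.9 to 43.3 in the control-labelled and 177 to 343 in the mutant-labelled libraries. *Ncr1* had no reads in control-labelled libraries and values of 50.9, 75.3 and 37.6 in mutant-labelled ones. Of the 7 T cell markers, 3 of 5 tested were higher (*Lck*, *Cd2* and *Cd8a*), and the sum was 62.1 to 76.6 and 549.9 to 705. *Cd2* and *Cd8a* were tested through the mutant-labelled group alone too. *Lck* held most of this sum (41.1, 21.7 and 44.4, then 567, 520.1 and 492), whereas *Cd3e* overlapped between the groups (8.88, 25.5 and 5.07, then 24.7, 19.3 and 5.93). *Cd3d* had no reads in control-labelled libraries and 5.82, 3.86 and 9.89 in mutant-labelled ones. The B cell list had no gene past the threshold, and its sums were 113 to 143 and then 68.2 to 95.3. The macrophage sums overlapped, at 12137 to 15563 and 13482 to 16377, with *Aif1* and *Fcgr1* higher and *Mrc1* lower. *C1qa* was higher in each mutant-labelled library by less than 2-fold (0.56), and *Cd68*, *Adgre1* and *C1qb* overlapped. Of the dendritic cell markers, *Batf3* was higher and *Siglech*, tested through the control-labelled group alone, was lower. Of the 5 fibroblast markers *Col1a1* was lower, with fibroblast sums of 1212702 to 1383889.8 and then 484032 to 752703. Of the 4 keratinocyte markers, *Krt14* and *Krt5* were higher, both tested through the mutant-labelled group alone. *Krt10* (184.3, 197 and 220.5, then 161, 181 and 155) and *Krt1* (13.3, 18.9 and 30.4, then 7.27, 11.6 and 5.93) were lower in each mutant-labelled library without passing the threshold. The keratinocyte sums overlapped (211 to 253 and 173 to 254). In the fibroblast list, *Col1a1* held most of the sum, while *Dcn* was at 45406 ± 7981 and 45217 ± 4449 and *Dpt* at 3002 ± 1684 and 5171 ± 942. *Batf3* (110.4 ± 33.3, then 958 ± 126) carried the higher dendritic cell sum, and *Zbtb46* was at 487 ± 72.9 and 464 ± 42.5. No endothelial, neutrophil or adipocyte marker passed the threshold. Of the endothelial ones, *Emcn* (0.57) and *Kdr* (0.81) were higher in each mutant-labelled library by less than 2-fold, and *Pecam1*, *Tie1* and *Cdh5* overlapped. Skeletal muscle markers were higher too (4 of 4, with sums of 3328 to 16945 and 22012 to 154873), and mutant-labelled replicate 3 had the largest sum. Among the mutant-labelled libraries, that replicate had the highest *Il15ra*, *Il4ra* and, by a narrow margin, *Il7* value, but not the highest *Il15*, *Il2ra*, *Il2rb* or *Il2rg* value. The part of NK cells, T cells and muscle in the values of *Il15*, *Il7* and the receptor chains was not tested.

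**Figure D3:**
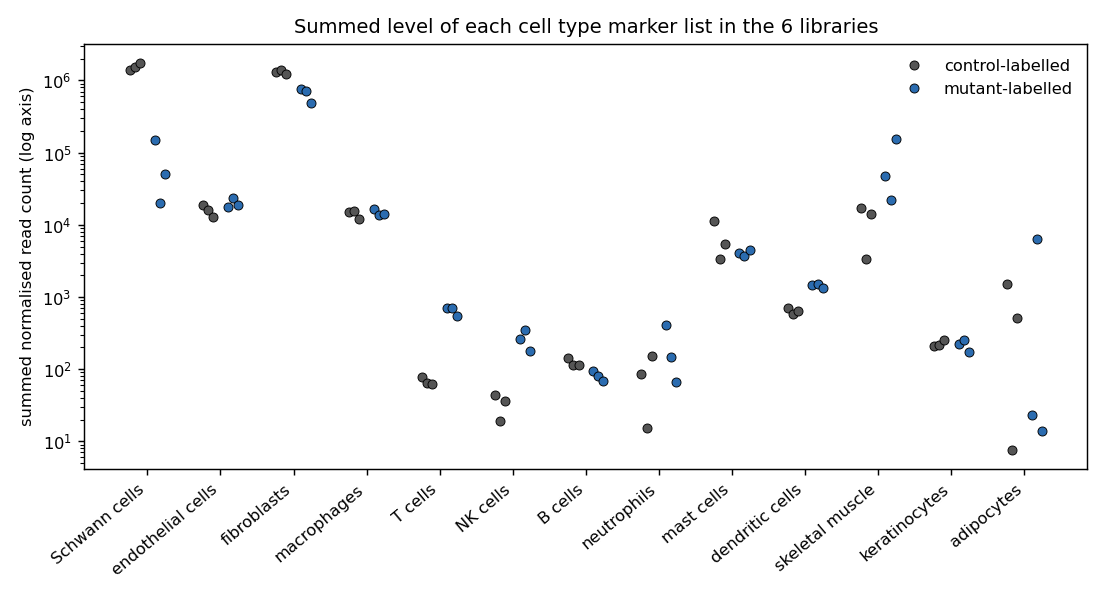
Summed normalized read counts of 13 cell type marker lists (log y axis) in each library, with 3 control-labelled (grey) and 3 mutant-labelled (blue) points for each list. The SC list is lower and the T cell, NK cell, dendritic cell and skeletal muscle lists are higher in each mutant-labelled library, the fibroblast and B cell lists are lower as well (the SC sum through *Mbp*, the dendritic cell sum through *Batf3* and the fibroblast sum through *Col1a1*), and the macrophage and mast cell points overlap.

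In the IL-1 family, the alarmin *Il33* and *Il18bp*, the binding protein of IL-18, rose with the smallest adjusted p-values of the family. *Il33* (GSMG0019586, chromosome 19, 29925112 to 29960718) is stored in nuclei of barrier and stromal cells and released on damage. Its values were 579.7, 414 and 416 in the control-labelled libraries and 1808, 3156 and 3021 in the mutant-labelled ones, which did not overlap. The mean rose from 469.7 ± 95.2 to 2661 ± 743 (log2 fold change 2.48, SE 0.24, adjusted p = 0.000127). *Il18bp* (GSMG0036351, chromosome 7, 102015076 to 102018690) encodes a soluble protein that captures IL-18. It had values of 162, 191 and 156 in the control-labelled libraries and 1996, 1239 and 2014 in the mutant-labelled ones, again without overlap. The rise was from 169.6 ± 18.7 to 1749.5 ± 442 (log2 fold change 3.33, SE 0.22, adjusted p = 2.04e-05). *Il1a*, a ligand of the IL-1 receptor, had few reads (4.44, 3.78 and 7.6, then 8.73, 9.65 and 17.8) and did not pass the threshold (1.04, SE 0.72, adjusted p = 0.299).

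The genes named Il1f in the table, which encode IL-36 type ligands and antagonists, were under the minimum. *Il1f5*, *Il1f6* and *Il1f8* had no reads. *Il1f9* had reads in mutant-labelled replicates 2 and 3, with values of 5.79 and 7.91. *Il1f10* was at 0 in the control-labelled libraries and at 5.82, 7.72 and 9.89 in the mutant-labelled ones. *Il1rl2*, the IL-36 receptor, had values of 533, 455 and 361 in the control-labelled libraries and 1144, 913 and 1164 in the mutant-labelled ones, without overlap. It rose by 1.26 on the log2 scale (SE 0.18, adjusted p = 0.00114).

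*Il1rl2* is 1 of 6 members that lie side by side on chromosome 1, between 40084714 and 40551705. Of these, 4 passed the threshold as higher, where 13.9% of all tested genes did, and 2 did not pass. *Il1r2* encodes a decoy receptor that binds IL-1 without a signal. It had values of 11.1, 8.5 and 16.5 in the control-labelled libraries and 45.8, 194 and 51.4 in the mutant-labelled ones, with mutant-labelled replicate 2 far above the others. Its log2 fold change of 2.63 (SE 0.65, adjusted p = 0.0148) ran from 1.97 without mutant replicate 2 to 3.002 without mutant replicate 1. *Il1r1*, the signalling receptor of IL-1, was close to the 2-fold limit (215, 167 and 141 in the control-labelled libraries and 295, 510.4 and 278 in the mutant-labelled ones), at 1.01 (SE 0.29, adjusted p = 0.0276). It lost its call without control-labelled replicates 2 or 3 or mutant-labelled replicate 2, where it was as low as 0.73.

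*Il1rl1* encodes ST2, the receptor of IL-33, and is carried by mast cells. Its values of 375, 81.3 and 129 in the control-labelled libraries and 77.1, 164 and 182 in the mutant-labelled ones overlapped, and the log2 fold change of -0.26 (SE 0.57, adjusted p = 0.756) had a 95% interval of -1.56 to 1.05. Control-labelled replicate 1 was the highest, and without it the change was 0.36. Mast cell markers were uneven in the same order among the control-labelled libraries, with *Cpa3* at 2246, 525 and 1089 and *Cma1* at 2771, 812 and 1282, and their sums were 3328 to 11449 and 3747 to 4445. Of these 5 markers, *Fcer1a*, tested through the mutant-labelled group alone, was higher and *Cpa3* lower past the threshold. Their part in the *Il1rl1* values was not tested.

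*Il18r1* and *Il18rap* encode the chains of the IL-18 receptor, which NK and T cells carry. *Il18r1* had few reads (2.22, 0 and 7.6, then 21.8, 46.3 and 9.89) and passed the threshold at 2.91, with an adjusted p of 0.0546. Its call was lost without control-labelled replicate 2 (2.11) or mutant-labelled replicate 2 (2.38), and without control-labelled replicate 3 it was at 3.66. *Il18rap* overlapped between the groups (88.8, 22.7 and 10.1, then 46.6, 113 and 67.3), at 1.32 (SE 0.76, adjusted p = 0.211), and without control-labelled replicate 1 it passed the threshold at 2.14, while it was at 0.64 without control-labelled replicate 3. *Il1rap*, the accessory chain on chromosome 16, had values of 1267, 1214 and 1220.3 in the control-labelled libraries and 2648, 1956 and 2894 in the mutant-labelled ones. The groups did not overlap, and the log2 fold change of 0.999 (SE 0.15, adjusted p = 0.00144) lay just under the 2-fold limit, with a ratio of means of 2.03. edgeR and DESeq2 on recovered reads placed it past the limit. *Il1rapl1* was low and overlapping (29.5 ± 13.4 and 23.1 ± 5.5), and *Il1rapl2* was under the minimum (0, 3.78 and 0, then 5.09, 5.79 and 11.9).

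**Figure D4:**
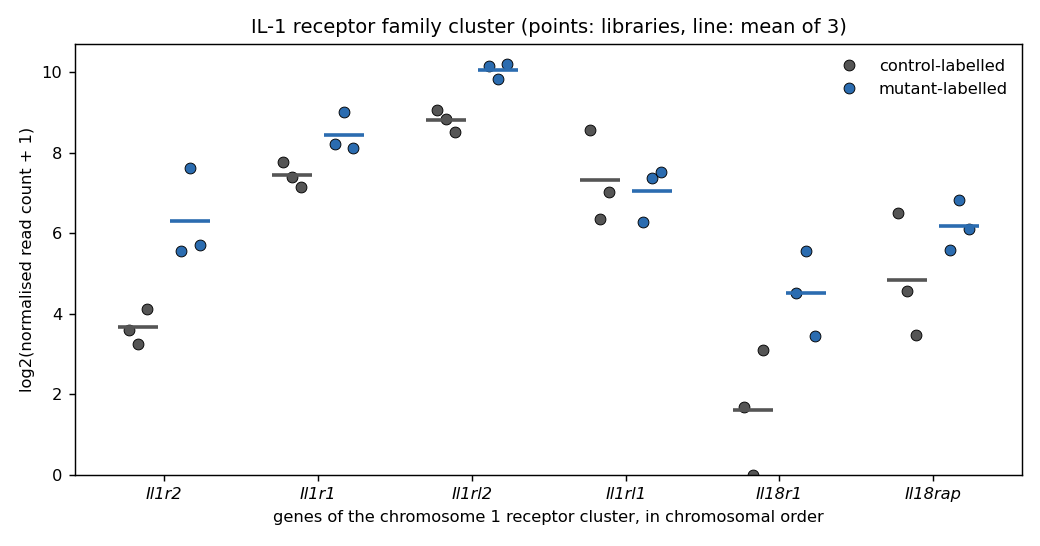
log2(normalized read count + 1) of the 6 members of the IL-1 receptor cluster in chromosomal order. Points are libraries (grey control-labelled, blue mutant-labelled) and lines the means of 3. The blue points lie above the grey ones for *Il1r2*, *Il1r1*, *Il1rl2* and *Il18r1* and overlap with them for *Il1rl1* and *Il18rap*.

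The IL-17 family was split, with a receptor chain that rose and one that fell to a single read. *Il17ra* (GSMG0032408, chromosome 6, 120463197 to 120483729), the chain that most IL-17 receptors contain, had values of 56.6, 91.7 and 50.7 in the control-labelled libraries and 487, 359 and 644 in the mutant-labelled ones. It rose from 66.3 ± 22.1 to 497 ± 143 (log2 fold change 2.89, SE 0.32, adjusted p = 0.000292). *Il17rb* (GSMG0012166, chromosome 14, 29996139 to 30008897) encodes the chain that binds IL-17B and IL-25. It had values of 63.3, 70.9 and 136 in the control-labelled libraries and 0, 0 and 0.989 in the mutant-labelled ones, and a single read was left in the mutant-labelled libraries together. The fitted log2 fold change was -6.09 (SE 0.71, adjusted p = 0.000375). Counted over the groups, the control-labelled level was 298 times the mutant-labelled one, with an exact (Clopper-Pearson) 95% interval of 52.9 to 11805 that covers counting error only.

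*Il17b*, a ligand of this chain, was lower as well. Its values were 172, 175 and 187.5 in the control-labelled libraries and 90.2, 20.3 and 33.6 in the mutant-labelled ones, and the control-labelled libraries were close to each other. It fell from 178 ± 8.24 to 48 ± 37.1 (log2 fold change -2.14, SE 0.52, adjusted p = 0.013). *Il25*, the other ligand, had few reads and overlapping values of 8.88, 23.6 and 22.8 in the control-labelled libraries and 29.8, 13.5 and 27.7 in the mutant-labelled ones (0.38, SE 0.63, adjusted p = 0.674). *Il17d* was lower in each mutant-labelled library (789.5, 634 and 693 in the control-labelled libraries and 415, 579.9 and 315 in the mutant-labelled ones) but changed by less than 2-fold, with a log2 fold change of -0.73 (SE 0.23, adjusted p = 0.0381).

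*Il17rc*, the partner chain of *Il17ra* for IL-17A and IL-17F, had values of 624, 949 and 887 in the control-labelled libraries and 1719, 1461 and 1776 in the mutant-labelled ones. It passed the limit narrowly, at 1.03 (SE 0.18, adjusted p = 0.00268), and dropped under it without control-labelled replicate 1 (0.84) or mutant-labelled replicates 1 or 3. The table's *Il17re* overlaps *Il17rc* on the same strand, so their reads can be split, and *Il17re* itself had few (6.66, 3.78 and 0, then 5.82, 30.9 and 8.9, adjusted p = 0.187). *Il17rd* overlapped between the groups (144, 71.8 and 41.8, then 101, 112 and 229), at 0.85 (SE 0.51, adjusted p = 0.231), and passed the threshold without control-labelled replicate 1 (1.31). *Il17f* had values of 0, 7.56 and 20.3 in the control-labelled libraries and 28.4, 40.5 and 41.5 in the mutant-labelled ones and passed the threshold at 2.72, with an adjusted p of 0.0825. It lost the call by edgeR and DESeq2, with a pseudocount of 0.1 and by eBayes without trend. It also lost it without control-labelled replicate 1 (1.47) or any mutant-labelled replicate, and was at 3.67 without control-labelled replicate 3. *Il17a* had no reads, and *Il17c* overlapped between the groups (9.99, 11.3 and 20.3, then 16.7, 33.8 and 12.9).

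*Il16* (GSMG0036221, chromosome 7, 83642819 to 83745728), whose product attracts cells that carry CD4, was the other member that fell. It had values of 2445, 3136 and 2826 in the control-labelled libraries and 917, 206 and 510.4 in the mutant-labelled ones (log2 fold change -2.60, SE 0.45, adjusted p = 0.00271). Mutant-labelled replicate 1 kept the highest and replicate 2 the lowest value of *Il16* and of *Il17b*. The SC marker sum followed the same order in these libraries, with *Mbp* at 137354, 13209.7 and 42987. Of the 3 SC markers, *S100b* and *Mbp* were lower past the threshold, while *Sox10* was at 11752 ± 849.7 and 7279 ± 1712 (log2 fold change -0.71). The part of the SC markers' fall in the values of *Il16*, *Il17b* and *Il17rb* was not tested.

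**Figure D5:**
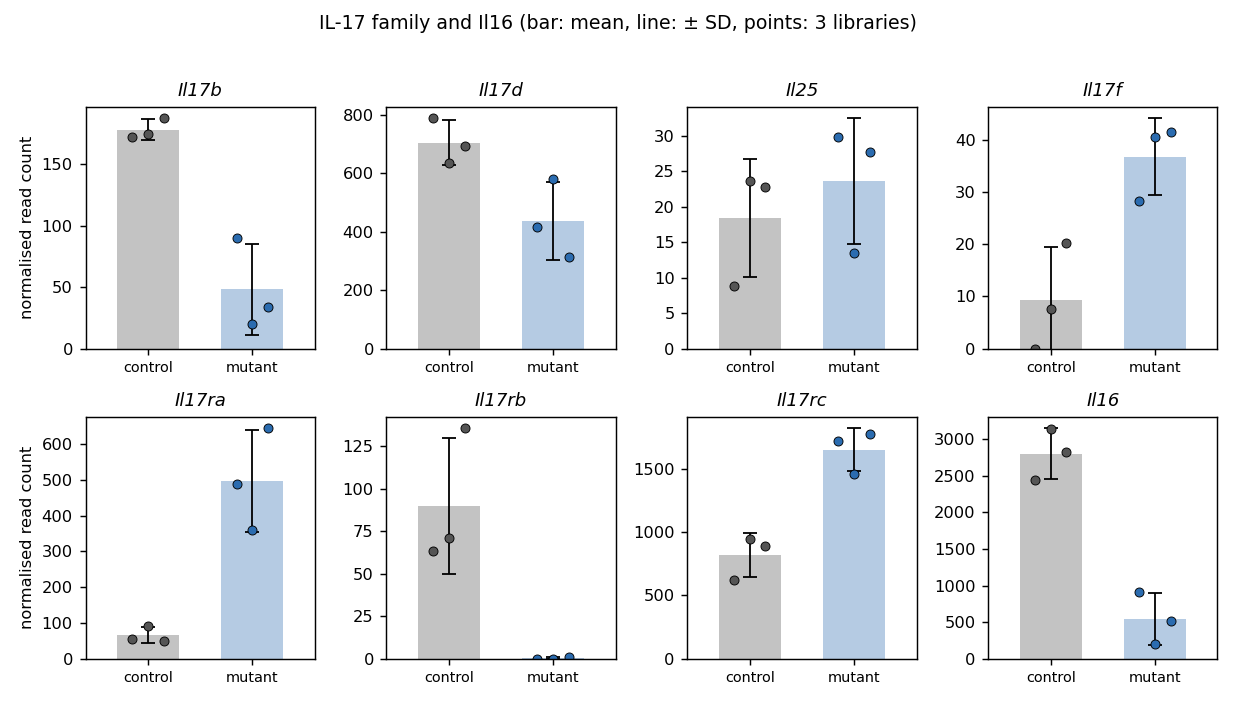
Normalized read counts (y axis, from 0, own scale in each panel) of 7 genes of the IL-17 family and of *Il16* in control-labelled and mutant-labelled libraries. Bars are means, lines SDs and points the 3 libraries of a group. *Il17ra*, *Il17rc* and *Il17f* are higher and *Il17b*, *Il17d*, *Il17rb* and *Il16* lower in each mutant-labelled library, and *Il25* overlaps.

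In the IL-12 and IL-6 family, subunits of IL-27 and IL-12 appeared at low level. *Il27* (GSMG0036656, chromosome 7, 126589010 to 126594941), which encodes the p28 subunit of IL-27, had values of 12.2, 9.45 and 0 in the control-labelled libraries and 97.5, 117 and 25.7 in the mutant-labelled ones. It passed the threshold at 3.71 (SE 1.08, adjusted p = 0.0282), and the estimate ran from 2.53 without control replicate 3 to 4.39 without control replicate 1. *Ebi3*, the subunit that pairs with p28, is no member and overlapped between the groups, at 117 ± 17.7 and 119.6 ± 34.2 (-0.01, SE 0.32, adjusted p = 0.989). *Il27ra*, the receptor chain for IL-27, rose from 87.4 ± 17.3 to 206 ± 11, with values of 103, 69 and 90 in the control-labelled libraries and 199, 219 and 202 in the mutant-labelled ones (log2 fold change 1.25, SE 0.27, adjusted p = 0.00746).

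*Il12b* encodes the p40 subunit shared by IL-12 and IL-23. It had no reads in the control-labelled libraries and values of 17.5, 17.4 and 1.98 in the mutant-labelled ones, so it was at least 3.69-fold higher against a floor of 3 reads in each control-labelled library. Its adjusted p was 0.0442, and mutant-labelled replicate 3 held 2 reads. Without that library the fitted log2 fold change went from 3.33 to 4.203. The partner subunits were not higher past the threshold. *Il12a* had reads in control-labelled replicate 3 alone (15.2), and *Il23a* had values of 57.7, 28.3 and 65.9 in the control-labelled libraries and 34.9, 3.86 and 17.8 in the mutant-labelled ones, which overlapped. *Il23a* did not pass the threshold (-1.71, SE 0.79, adjusted p = 0.127), though it did without control-labelled replicate 2 or mutant-labelled replicate 1 (-2.35) and with a pseudocount of 10, and it was at -0.91 without mutant-labelled replicate 2.

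*Il12rb1*, the receptor chain that IL-12 and IL-23 share, had overlapping values of 52.2, 119 and 27.9 in the control-labelled libraries and 222, 119 and 169 in the mutant-labelled ones. It passed the threshold at 1.54 with an adjusted p of 0.0509, and lost the call without control-labelled replicate 3 (1.05) or mutant-labelled replicates 1 or 3. *Il12rb2*, the other chain of the IL-12 receptor, had overlapping values of 16.7, 32.1 and 38 in the control-labelled libraries and 27.6, 28.9 and 25.7 in the mutant-labelled ones, with an estimate of 0.00 and a 95% interval of -1.17 to 1.17. *Il23r* was under the minimum (2.22, 0 and 0, then 2.91, 13.5 and 0). *Il6ra* had values of 154 ± 45.9 and 214 ± 8.4 (0.52, SE 0.28, adjusted p = 0.191), and its span in the table overlaps 28 other genes on its strand. *Il11ra1* was at 3102 ± 223 and 2872 ± 270.0 (-0.11, SE 0.11, adjusted p = 0.458). A row that joins *Il11ra2*, a near-identical copy, with *Gm13305* and *Gm2002* was at 103 ± 13.9 and 117 ± 8.72, and reads of the copies can be split between the rows.

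Among the receptors of type 2 cytokines and of the common beta chain, *Il13ra2* and *Il3ra* rose. *Il13ra2* is a decoy receptor of IL-13. Its values were 6.66, 0 and 0 in the control-labelled libraries and 30.6, 38.6 and 35.6 in the mutant-labelled ones, so it had reads in 1 control-labelled library and in each mutant-labelled one. The fitted change of 4.18 on the log2 scale (SE 0.96, adjusted p = 0.0104) ran from 3.69 without control replicate 2 to 5.16 without control replicate 1. *Il3ra* (GSMG0011241, chromosome 14, 14346495 to 14355492), the alpha chain of the IL-3 receptor, had values of 1150.4, 1233 and 992 in the control-labelled libraries and 3465, 1839 and 3070.1 in the mutant-labelled ones (1.26, SE 0.22, adjusted p = 0.00312). *Il13ra1*, the signalling chain, had overlapping values of 286, 180.5 and 205 in the control-labelled libraries and 209, 643 and 455 in the mutant-labelled ones (0.84, SE 0.40, adjusted p = 0.135). *Il31ra* overlapped too (122 ± 58.9 and 187.5 ± 28.2, 0.73, SE 0.38, adjusted p = 0.174). *Il13ra1* passed the threshold without mutant-labelled replicate 1 (1.29), and *Il31ra* without control-labelled replicate 1 (1.08). *Il5ra* was under the minimum, with reads in 1 library of each group (2.53 and 7.72). The ligands were scarce. *Il3* had no reads, *Il13* had 4 reads in control-labelled replicate 1 and 1 in replicate 2, *Il31* had reads in mutant-labelled replicate 1 alone (11.6), and *Il5* overlapped between the groups (11.1, 0 and 0, then 24.7, 13.5 and 0).

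No ligand of the IL-10 family reached the minimum, and 1 of 4 tested receptor chains passed the threshold, where 24.2% of all tested genes did in either direction. *Il20* and *Il22* had no reads, *Il19* and *Il24* had reads in mutant-labelled replicate 1 alone (2.91 and 1.45), and *Il10* had values of 0, 3.86 and 7.91 in the mutant-labelled libraries and no reads in the control-labelled ones. *Il10ra*, the ligand-binding chain of the IL-10 receptor, had values of 83.3, 56.7 and 40.6 in the control-labelled libraries and 121, 160.2 and 103 in the mutant-labelled ones. It passed the threshold at 1.11 (SE 0.37, adjusted p = 0.0486) and lost the call without control-labelled replicate 3 (0.87) or mutant-labelled replicate 2. *Il10rb*, a chain of the receptors for IL-10 and IL-22, had overlapping values of 1236, 1210.4 and 1134 in the control-labelled libraries and 1136, 1407 and 1246 in the mutant-labelled ones, with a log2 fold change of 0.08 and a 95% interval of -0.20 to 0.36. *Il20rb* overlapped between the groups (146 ± 59.5 and 174 ± 66.5), *Il22ra1* had few reads (7.28 ± 0.531 and 15.3 ± 11), and *Il20ra* and *Il22ra2* were under the minimum, with at most 6.66 and 2.53 in any library.

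*Il34* encodes a ligand of the receptor CSF1R, on which macrophages depend. It had values of 529.7, 611 and 636 in the control-labelled libraries and 811, 335 and 836 in the mutant-labelled ones, which overlapped, and a log2 fold change of 0.05 with a 95% interval of -0.71 to 0.80. *Csf1r*, no member, was lower in each mutant-labelled library (5671, 4085 and 4108 in the control-labelled libraries and 2286, 2298 and 1347 in the mutant-labelled ones), with a log2 fold change of -1.25 (SE 0.22, adjusted p = 0.00327). It lost its call without mutant-labelled replicate 3 (-0.99). A row that joins *Nup62* with *Gm21948* and *Il4i1*, which encodes an amino acid oxidase, was at 4995 ± 264 and 7327 ± 464 (0.55, SE 0.09, adjusted p = 0.00221). Its reads cannot be assigned to *Il4i1*. *Il1bos* is a transcript antisense to *Il1b* and no interleukin. It had no reads in control-labelled libraries and 21.1, 13.5 and 3.96 in mutant-labelled ones, at least 3.87-fold higher (adjusted p = 0.0241). Its fitted log2 fold change went from 3.54 to 4.16 without mutant-labelled replicate 3. The methods describe oriented cDNA, which keeps strand, and the sources used here do not state that the counting used it.

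Partner genes of interleukin signalling outside the member list were described from a list of 23 shared chains, adaptors, kinases and factors. Higher past the threshold were 11 (47.8%) and lower was 1 (*Csf1r*, 4.35%), beside 13.9% and 10.4% of all tested genes. *Csf2rb*, the common beta chain that pairs with *Il3ra*, had values of 162, 130.4 and 156 in the control-labelled libraries and 735, 583 and 669.6 in the mutant-labelled ones (log2 fold change 2.14, SE 0.19, adjusted p = 8.93e-05). *Tslp*, a cytokine related to IL-7, had the largest change of the list, from 46.8 ± 5.2 to 431 ± 182.99 (3.09, SE 0.35, adjusted p = 0.000304), and its receptor chain *Crlf2* rose from 344 ± 55.5 to 1146 ± 147 (1.74, SE 0.17, adjusted p = 0.000169). *Myd88*, the adaptor of IL-1 and IL-18 receptors, rose from 599 ± 34.4 to 2069 ± 67.5 (1.79, SE 0.11, adjusted p = 1.77e-05). The other genes higher past the threshold were *Csf2rb2*, *Irak2*, *Irak3*, *Traf3ip2*, *Stat4*, a row that joins *Jak3* and *Insl3*, and *Cd4*, whose values overlapped (adjusted p = 0.0542). *Traf3ip2* encodes the adaptor of IL-17 receptors and was at 1.09 (SE 0.21, adjusted p = 0.00419). It lost its call without control-labelled replicate 3 (0.946), and so did *Cd4* without that library (0.799) or mutant-labelled replicates 1 (0.852) or 3. *Cd4* also lost it with a pseudocount of 10 (0.988) and at the same 75th percentile (0.987). *Jak1*, *Stat5a* and *Stat5b* were higher in each mutant-labelled library by less than 2-fold, with log2 fold changes of 0.67, 0.54 and 0.57. *Irak1*, *Irak4*, *Traf6*, *Stat6*, *Sigirr* and *Ptprz1* overlapped between the groups. *Ptprz1* passed the threshold as lower without control-labelled replicate 2 (-1.03), so the count of lower partner genes was 2 without that library and 0 without mutant-labelled replicate 3. *Tyk2* was lower in each mutant-labelled library at -0.57 (SE 0.14, adjusted p = 0.0144), less than 2-fold.

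Position in the genome grouped 34 of the 77 members into 12 clusters with gaps of at most 100000 bases. *Il2ra* and *Il15ra* form a pair in which both rose. *Il4ra* and *Il21r* form one in which *Il4ra* rose, and in the cluster of *Il24*, *Il20*, *Il19* and *Il10* on chromosome 1 no gene reached the minimum. The same holds for the 5 IL-1 family ligands between 24153159 and 24293820 on chromosome 2. Of the 27 members past the threshold, 7 overlap another gene of the table on the same strand (*Il1r1*, *Il33*, *Il17rc*, *Il12rb1*, *Il27ra*, *Il10ra* and *Il13ra2*), and reads there can be split. On the opposite strand 10 of the 27 overlap another gene, whose reads can enter if the counting did not use strand.

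Promoters were searched for 2 motifs on both strands, the core of the interferon-stimulated response element, GAAANNGAAA, and the NF-kB motif. The RefSeq table held a promoter, from 250 bases before to 50 after a start, for 60 of the 77 members. The members past the threshold without an entry were *Il15*, *Il7*, *Il2rb*, *Il17ra*, *Il17b*, *Il27*, *Il27ra*, *Il12rb1* and *Il10ra*. The response element core was found for 3 members (5% of the 60), *Il1rap*, *Il4* and *Il19*, and in promoters of 3.99% of the 27025 genes in the table. None of the 16 members past the threshold and higher with a promoter held it. The NF-kB motif was found for 6 members (10% of the 60), beside 5.14% of all genes, and these were *Il1r1*, *Il2ra*, *Il4ra*, *Il12rb2*, *Il16* and *Il19*. The matches of *Il1r1* and *Il16* are shown in capitals with flanking bases, those of *Il16* being overlapping matches on both strands, and each gene has 1 or more further starts without a match. Both windows lie inside the span of the gene, far from its outer start, at 40225080 for *Il1r1* and 83745728 for *Il16*.
*Il1r1*, chr1:40266344-40266373, plus strand: cagggattttGGAATGCCCCcaaggagatg
*Il16*, chr7:83655525-83655554, minus strand: catgactgctGGGAATTTCCCgctaaaggt
Of the 6, *Il1r1*, *Il2ra* and *Il4ra* were higher and *Il16* lower past the threshold, *Il12rb2* did not pass it and *Il19* was not tested. A match describes letters of these windows, and binding was not measured.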

How the data were processed

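The authors extracted total RNA from sciatic nerves at postnatal day 4, prepared cDNA of the poly-A fraction, sequenced it as paired ends on an Illumina HiSeq instrument, aligned reads to mm10 with STAR (version 2.4.0 in the submitters' processing notes) and counted them on FAST DB genes. The deposited values are a signal, gene counts divided by DESeq2 size factors. Reads were recovered from the step of the values (100% whole within 0.05 reads). Each library was 1 animal, and groups follow the labels.

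limma (version 3.58.1, lmFit and eBayes with trend, R 4.3.3) was fitted to log2(value + 1) of the 3 and 3 libraries for genes with a mean of at least 10 in 1 or both groups. The scripts were tested on simulated data. An exact permutation test of 3 against 3 cannot go below p = 0.1 and was not used. edgeR (4.0.16) and DESeq2 (1.42.0) on recovered reads, other pseudocounts, minimum means and scalings, a replicate block and left-out libraries were alternatives. Values of every library are given for members past the threshold without overlap and for their ligands, receptor chains or binders with a mean of at least 10, and other members by value, mean or range. The member rule, the partner genes and the marker lists were chosen with earlier results of these data known, so they are no independent support. Some Schwann cell markers are not reported here. Promoters came from RefSeq (GRCm38.p6), matched by symbol. Intervals on reads cover counting error only.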

Additional observations from a re-analysis of the deposited data

How the results depend on the processing

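Over 12 alternatives and 6 fits without a single library, 21 of the 27 members past the threshold kept their call wherever they were tested, and none of the 27 turned its direction. The 6 that lost it somewhere were *Il1r1*, *Il18r1*, *Il17f*, *Il12rb1*, *Il17rc* and *Il10ra*. Members past the threshold numbered 21 to 26 higher and 3 to 4 lower with 1 library left out, and partner genes 9 to 11 higher and 0 to 2 lower. A minimum mean of 50 gave 19 higher members, of fewer genes tested. Rescaling libraries to the same total moved the median over all tested genes (log2 fold change) from 0.03 to 0.19 and the share of calls that were higher from 57.3% to 66.2%. Rescaling to the same 75th percentile ended the calls of *Il1r1* (0.94) and *Il17rc* (0.96), and a pseudocount of 10 ended that of *Il1r1* (0.98). Each of these settings also ended the call of the partner gene *Cd4*. A pseudocount of 0.1, eBayes without trend, edgeR and DESeq2 each ended the call of *Il17f*. Cause was not tested for any of these.

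Of the 25 tested members not past the threshold, 8 passed it in 1 or more alternatives (*Il1rap*, *Il23a*, *Il18rap*, *Il7r*, *Il17rd*, *Il31ra*, *Il13ra1*, at the same total too, and *Il1a*, by eBayes without trend), and 8 others changed sign. *Il12rb2* was at -0.0141 with a pseudocount of 10, -0.063 at the same 75th percentile, -0.075 by edgeR and -0.076 by DESeq2, and ran from -0.34 to 0.23 with a library left out. *Il34* was at -0.0210 at the same 75th percentile and ran from -0.18 to 0.48 with a library left out, and *Il11ra1* was at 0.051 at the same total. With a library left out, *Il1rl1* ran from -0.73 to 0.36, *Il25* from -0.049 to 0.73, *Il10rb* from -0.0033 to 0.15, *Il1rapl1* from -0.69 to 0.0080 and *Il20rb* from -0.14 to 0.63.

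With the replicate number as a block, 24 members were higher and 4 lower, and partner genes numbered 11 and 1, with *Il23a* joining at -1.71. The labels do not say that a number marks shared animals, and deviations of same-numbered libraries correlated at -0.0619, -0.0555 and 0.00891, so the numbers were not read as pairs. Control replicate 3 alone correlated best with its own number. Genes with few reads were limited by depth, since 1 read was worth 0.727 to 1.27 normalized counts.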
